A study of Mus musculus with 30 samples.

Results

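The study listed 1236 alternative splicing events, in 541 genes, whose isoform use differed between 2 classes of control cortical neuron of the mouse, sorted from Emx1-Cre and from Gad2-Cre embryos. These are all rows of the table that compares both control groups, and they make up 1236 of the 6491 events in the series' 4 splicing tables. Of the 541 genes, 189 appeared in neither of the tables that compare control with conditional Nova2 knockout (cKO) neurons of the same Cre lines; they hold 356 of the events and are described first and in most detail. The other 352 genes hold 878 events, and 2 events carry no gene name.

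Both groups were cortex of C57BL/6J mice at embryonic day 18.5, with the genotypes Wild-type_Emx1-Cre and Wild-type_Gad2-Cre, so both groups carried a Cre allele and were labelled wild-type. Cells were collected by fluorescence-activated sorting, total RNA was extracted with Trizol, and ribosomal RNA was removed before sequencing. Each group had 3 samples, 6 of the 30 in the series. The Emx1 driver acts in the dorsal forebrain lineage, which gives rise to excitatory cortical neurons but also to progenitors and glia, and the Gad2 driver acts in cells that make GABA. The labels do not say which reporter was sorted or whether the samples were separate animals, so the spread behind the authors' tests may in part be technical. The splicing tables give no expression level, so the purity of each sort could not be checked against markers. Of 14 excitatory neuron markers and 36 markers of other cell types none had a listed event, and of 18 inhibitory neuron markers only Erbb4 had one, which bears on splicing and not on how much of each cell type was present.

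Alternative splicing lets a gene make several mRNAs by including or skipping exons, by choosing between 2 neighbouring exons, or by keeping an intron. In neurons it sets which variants of adhesion molecules, receptors and channels are made, and very short cassette exons, called microexons, are a feature of neuronal transcripts that usually keep the reading frame. RNA-binding proteins such as those of the NOVA, RBFOX, PTBP and SRRM families decide many of these choices.

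For each event the authors' deposited table gives 1 level per group, the fraction of an event's transcripts that carry the isoform named first. That isoform is the included one for cassette exons and the first of the alternatives for mutually exclusive exons. For introns it is taken here to be the retained one, since the table's isoform column names it first, but the event names end in the spliced isoform and nothing in the headers settles it; under the other reading every retained level and direction below would turn round. The levels are pooled over the 3 samples, so none has a replicate error here, and all levels, coverages and false discovery rates (FDR) below are the authors' values. An event was listed when its FDR was at most 0.05 and its levels differed by at least 0.1. The listed difference nearest to that limit was in Mpped2 and the FDR nearest to its limit in Odf2. Coverage, which the authors give per event without a definition in the headers, ran from 20 to 1458 with a median of 52. Events that were tested and not listed were not analysed here, so no share below is a share of all tested events. Of 21951 protein-coding genes in the GENCODE annotation, 525 (2.39%) had a listed event.

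**Figure D1:**
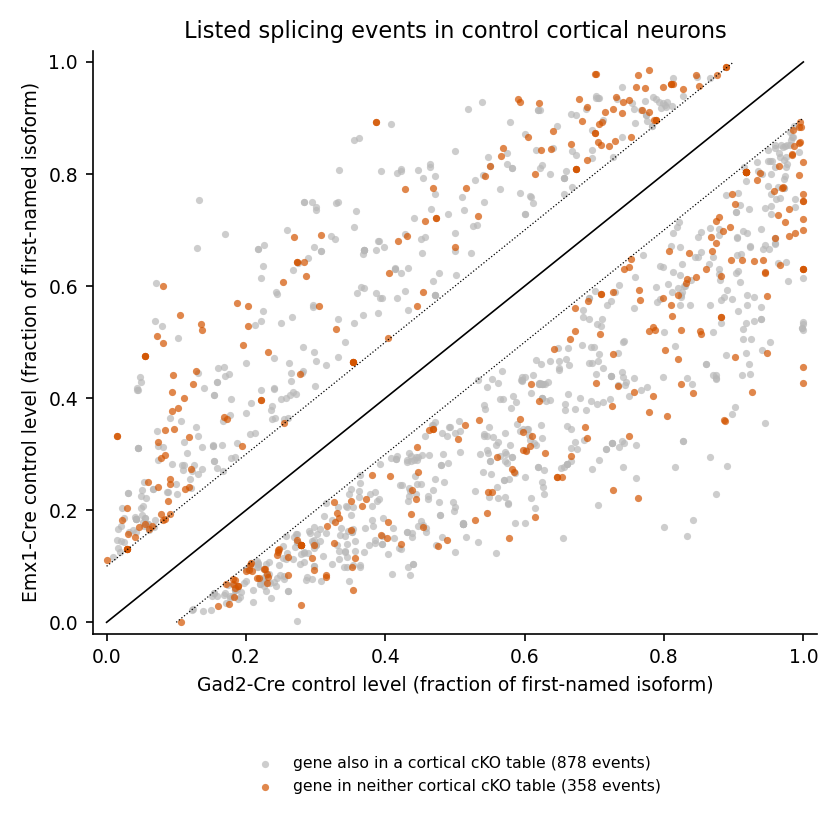
Level of each listed event in Gad2-Cre controls (x axis) and Emx1-Cre controls (y axis), as the fraction of transcripts with the isoform named first. Orange points are the 356 events of genes in neither cortical cKO table and the 2 events with no gene name. Grey points are the 878 events of other genes. The solid line marks equal levels, the dotted lines mark the 0.1 limit for listing, and the cloud below the diagonal is the larger, with 787 of 1236 events.

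Most listed events had the higher level in the Gad2-Cre class. Of all 1236 events, 449 (36.3%) were higher in Emx1-Cre and 787 were higher in Gad2-Cre controls. Among the 356 events of the 189 genes in neither cKO table, 145 (40.7%) were higher in Emx1-Cre and 211 in Gad2-Cre controls, with a median difference in size of 0.192 against 0.204 for the 878 events of the other genes. Their median coverage was also lower, 41 against 58. Coverage moved with the membership as well: where events needed a coverage of at least 50, 83 of 292 genes (28.4%) were in neither cKO table, against 189 of 541 (34.9%) without that limit. Its part in the membership was not tested.

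Cassette exons formed the largest type, with 158 events among the genes in neither cKO table, of which 68 were higher in Emx1-Cre and 90 in Gad2-Cre controls (39.5% of all 534 cassette events were higher in Emx1-Cre). Tandem cassettes, in which a run of exons is included together, split 39 to 54, beside 30% higher in Emx1-Cre over all 343. Retained introns split 7 to 20, beside 15.2% over all 112. Mutually exclusive exons split 16 to 17, alternative 3′ splice sites 12 to 24 and alternative 5′ splice sites 3 to 6. For these 3 types a higher level is read as more of whichever alternative the table's isoform column names first, and says nothing of more or less exon. For alternative 5′ splice sites the event names carry the other alternative, and the headers do not settle which is meant.

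**Figure D2:**
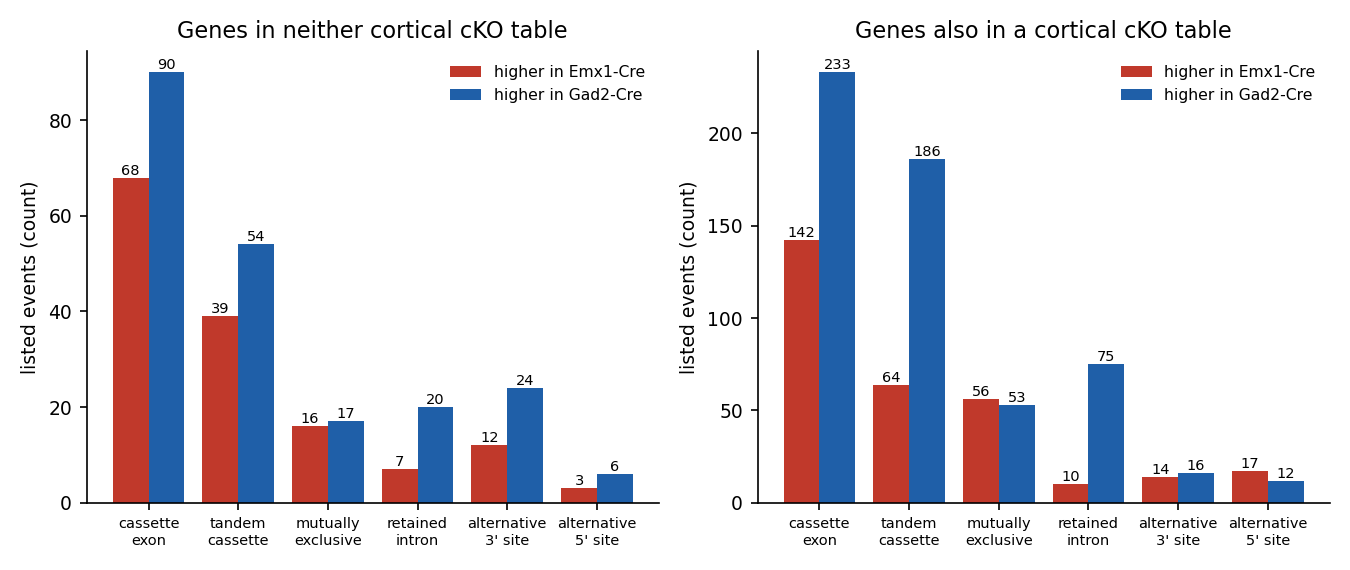
Number of listed events of each type (x axis) that had the higher level in Emx1-Cre (red) or Gad2-Cre (blue) controls, for genes in neither cortical cKO table (left) and for the other genes (right). Retained introns lean to the Gad2-Cre class in both panels, 20 of 27 and 75 of 85, while mutually exclusive exons are near an even split.

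Many differences were moves in the ratio of 2 forms rather than switches between them. Of the 158 cassette events in genes found in neither cKO table, 11 events in 10 genes differed by at least 0.4. In 18 events of 14 genes the exon was in the minor form in Emx1-Cre and in the major form in Gad2-Cre controls, and in 15 events of 12 genes the reverse held. A level of at least 0.95 was reached by 7 of these events in Emx1-Cre and by 13 in Gad2-Cre controls.

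The neurexin gene Nrxn2 had the highest coverage among the 10 cassette exons named toward the Emx1-Cre class. Neurexins are presynaptic adhesion molecules, and their alternatively spliced inserts set which postsynaptic partners they bind. Of the Nrxn2 inserts listed as cassettes, the first comes in a 24 nt and a 45 nt form that share their start. It lies within chr19:6463824-6463868 on the plus strand. The second is the 90 nt exon at chr19:6513716-6513805 (mm10, coding exons of GENCODE). Mutually exclusive exons of Nrxn2 were listed too, further upstream.

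In Nrxn2 the 24 nt form was included at 0.448 in Emx1-Cre and 0.128 in Gad2-Cre controls, with a coverage of 146 and an FDR of 2.05e-09 in the authors' deposited table. The 45 nt form stood at 0.322 and 0.0744. The 90 nt exon went the other way, from 0.486 in Emx1-Cre to 0.802 in Gad2-Cre controls, with an FDR of 1.52e-08 in the authors' deposited table. Emx1-Cre controls thus carried more of the first insert and less of the second. The 24 nt and 45 nt events share reads and are not separate measurements.

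The L-type calcium channel gene Cacna1d showed a change in the use of a pair of 104 nt exons that lie next to each other and encode alternative versions of the same membrane segment. The first in transcript order lies at chr14:30171956-30172059 and the second at chr14:30171296-30171399, both on the minus strand (mm10, coding). They are printed because the result is a choice between them, with capitals at the 22 of 104 positions that differ.
Cacna1d first exon: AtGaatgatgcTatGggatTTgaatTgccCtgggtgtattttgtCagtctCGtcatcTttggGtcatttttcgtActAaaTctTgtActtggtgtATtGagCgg
Cacna1d second exon: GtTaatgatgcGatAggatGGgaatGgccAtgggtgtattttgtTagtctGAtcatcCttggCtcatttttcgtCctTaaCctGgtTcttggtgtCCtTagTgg
As mutually exclusive exons, the first was used at 0.306 in Emx1-Cre and 0.602 in Gad2-Cre controls, with a coverage of 93 and an FDR of 0.00660 in the authors' deposited table. Read as a cassette, the second exon was included at 0.608 and 0.253. Read as a cassette, the first exon was at 0.236 and 0.439, higher in Gad2-Cre but below an even share in both classes. The 3 events share reads.

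Pkm, which encodes a pyruvate kinase of glycolysis, showed a smaller move at the highest coverage among the genes in neither cKO table. Its pair of 167 nt exons decides between the isoforms PKM1 and PKM2, and the first, used in PKM1, lies at chr9:59675029-59675195 on the plus strand. Pkm was named after its values were seen. Capitals mark the 64 of 167 positions at which the first exon and its partner at chr9:59675568-59675734 differ.
Pkm first exon: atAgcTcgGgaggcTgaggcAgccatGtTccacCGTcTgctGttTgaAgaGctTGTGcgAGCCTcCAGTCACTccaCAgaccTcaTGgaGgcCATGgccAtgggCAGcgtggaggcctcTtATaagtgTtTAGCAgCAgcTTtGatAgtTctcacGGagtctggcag
Pkm second exon: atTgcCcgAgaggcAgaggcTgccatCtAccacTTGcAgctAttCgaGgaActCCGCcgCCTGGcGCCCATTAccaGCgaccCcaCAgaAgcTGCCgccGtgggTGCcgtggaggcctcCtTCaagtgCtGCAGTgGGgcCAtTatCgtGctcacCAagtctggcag
Read as a cassette, the first exon was included at 0.573 in Emx1-Cre and 0.691 in Gad2-Cre controls. That event had a coverage of 974 and an FDR of 1.78e-08 in the authors' deposited table. The exon was the major form in both classes. Mutually exclusive events with 247 nt and 163 nt forms of it stood at 0.586 and 0.710, with a coverage of 1245. These forms share the end of the 167 nt exon and are not separate measurements.

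Exons of 2 receptor genes and of 1 neuropeptide-processing gene in neither cKO table are given next. Adcyap1r1 encodes the receptor of the neuropeptide PACAP, and its hop cassette adds residues to an intracellular loop that contacts G proteins. The cassette lies at chr6:55491227-55491310 on the plus strand and has 84 nt and 81 nt forms, which differ by the 3 bases in capitals.
Adcyap1r1 84 nt exon: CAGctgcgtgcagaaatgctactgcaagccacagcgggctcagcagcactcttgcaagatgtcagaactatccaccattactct
The 84 nt form was included at 0.386 in Emx1-Cre and 0.726 in Gad2-Cre controls, with an FDR of 0.00190 in the authors' deposited table. The 81 nt form stood at 0.348 and 0.687, and both forms share their end, their neighbouring exons and the reads that skip them, so they are not separate measurements. Grm5, the metabotropic glutamate receptor mGluR5, went toward the Emx1-Cre class: the 96 nt exon at chr7:88116193-88116288, in the part that encodes the intracellular tail, was included at 0.292 in Emx1-Cre and 0.0774 in Gad2-Cre controls. The exon is printed because it is the insert that tells both tail variants apart.
Grm5 96 nt exon: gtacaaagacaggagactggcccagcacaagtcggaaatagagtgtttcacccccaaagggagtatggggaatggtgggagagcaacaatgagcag
Pam, the enzyme that amidates neuropeptides, had the largest cassette difference toward Gad2-Cre among events of coverage 50 or more in genes found in neither cKO table. Its 89 nt exon stood at 0.480 in Emx1-Cre and 0.947 in Gad2-Cre controls, with a coverage of 113 and an FDR of 6.23e-15 in the authors' deposited table. The longer 318 nt version, which GENCODE annotates and which ends at the same 5′ splice site, stood at 0.638 and 0.967.

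Among the cassette exons higher in Emx1-Cre controls, 1 per gene and with a coverage of at least 50, the leading one was an 85 nt coding exon of Nkain4, which encodes a partner of the sodium pump, at 0.687 in Emx1-Cre and 0.268 in Gad2-Cre controls. The next was a 72 nt coding exon of Dennd5a, an activator of Rab GTPases, at 0.565 and 0.202. Polh, a DNA polymerase that copies past damage, had a 215 nt exon at 0.618 and 0.286. A 53 nt exon of Rbfox1, a neuronal splicing factor, was at 0.529 and 0.202 and is not an exon of GENCODE. The 110 nt exon of Trit1, an enzyme that modifies transfer RNA, was at 0.564 and 0.305. The 54 nt exon of Ythdc1, a nuclear reader of methylated adenosine, was at 0.845 and 0.637. Exons of Zfp558 and Nadk completed the 10 with Nrxn2 and Grm5, at 0.774 and 0.516 and at 0.725 and 0.533. The Zfp558 and Nadk forms are also not exons of GENCODE.

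The exons higher in Gad2-Cre controls were led by Pam and Adcyap1r1. The third was a 246 nt exon of Gnal, a stimulatory G protein subunit, at 0.136 in Emx1-Cre and 0.475 in Gad2-Cre controls. Ergic3, of the compartment between endoplasmic reticulum and Golgi, had a 77 nt form at 0.625 and 0.945 that is not an exon of GENCODE. Its annotated 15 nt form was at 0.778 and 0.971. Ssr1, a subunit of the translocon-associated complex, had a 20 nt form at 0.427 and 0.703, also not an exon of GENCODE. The annotated 15 nt form of Ssr1 was at 0.585 and 0.820. Ap1b1, a subunit of the clathrin adaptor AP-1, had a 21 nt exon at 0.547 and 0.811. Dcaf6, Tpd52l2, Chchd3 and the sodium channel gene Scn2a1 completed the 10. The Scn2a1 exon, 74 nt long and not coding in GENCODE, was at 0.142 and 0.326.

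**Figure D3:**
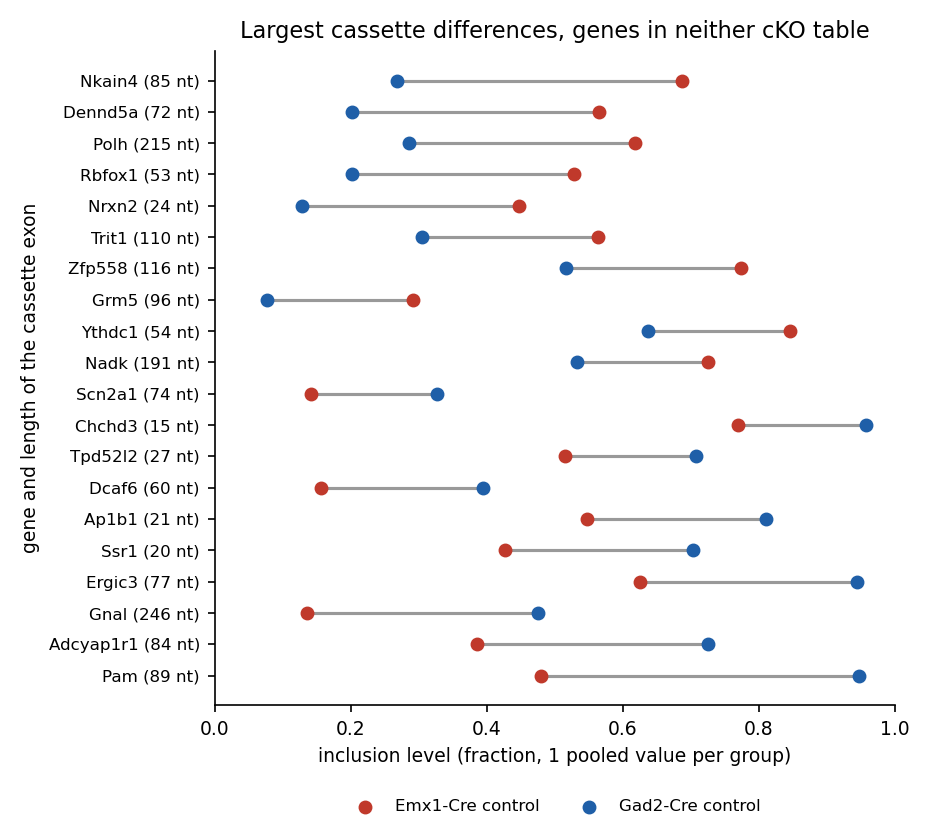
Inclusion level (x axis, fraction) of the 10 cassette exons with the largest difference in each direction, 1 per gene, in genes found in neither cortical cKO table and with a coverage of at least 50; red points are Emx1-Cre and blue points Gad2-Cre controls, each 1 pooled value. The widest bar is Pam, 0.480 against 0.947, and 4 of the exons higher in Gad2-Cre are 27 nt or shorter.

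Short exons leaned to the Gad2-Cre class. Counting each cassette exon once, 61 exons were 27 nt or shorter, and 47 of them (77.0%) had the higher inclusion in Gad2-Cre controls. Among exons of 28 to 51 nt it was 51 of 69 (73.9%), and among longer exons 220 of 396 (55.6%). In the genes found in neither cKO table the counts were 18 of 20 (90.0%), 16 of 20 (80.0%) and 55 of 116 (47.4%), so the longer exons of those genes were close to an even split. The 20 shortest lie at 15 sites in 15 genes, and overlapping forms of 1 exon are counted apart; with 1 exon per gene it was 13 of 15 (86.7%). Median coverage was 56 for exons up to 27 nt and 52 for those over 51 nt over all genes. In the genes found in neither cKO table it was 48.2, 31.5 and 41 for exons up to 27 nt, of 28 to 51 nt and longer, and its part in the counts was not tested. Since only listed events are known, the counts describe the listed exons.

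**Figure D4:**
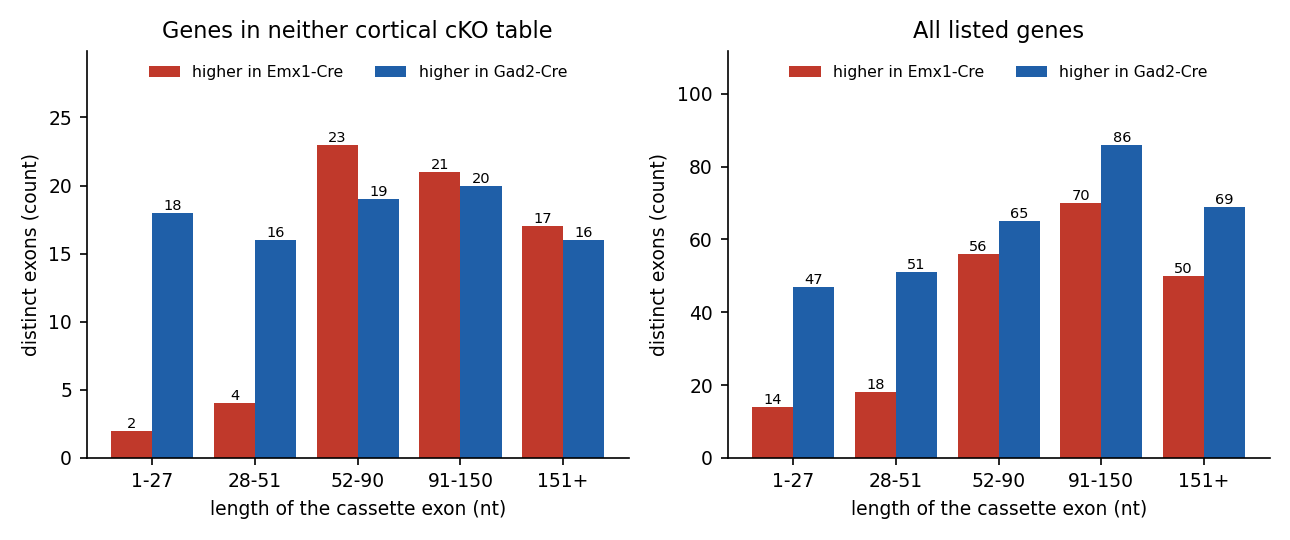
Number of distinct cassette exons (y axis) by exon length (x axis, nt) with higher inclusion in Emx1-Cre (red) or Gad2-Cre (blue) controls, for genes in neither cortical cKO table (left) and for all listed genes (right). The blue bars stand far above the red for exons up to 51 nt, 18 against 2 and 16 against 4 on the left, and no such gap shows for longer exons on the left.

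The sequences of 7 of these short exons, all coding and all higher in Gad2-Cre controls, show how little each adds to its transcript. Capitals mark the exon and lower case the 12 bases of the neighbouring exon on each side.
Fstl5 27 nt exon, chr3:76620480-76620506, plus strand: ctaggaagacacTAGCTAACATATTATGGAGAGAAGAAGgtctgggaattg
Tpd52l2 27 nt exon, chr2:181510504-181510530, plus strand: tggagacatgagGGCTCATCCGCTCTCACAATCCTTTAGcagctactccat
Ap1b1 21 nt exon, chr11:5033242-5033262, plus strand: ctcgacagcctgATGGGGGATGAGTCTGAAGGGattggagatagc
Vti1a 21 nt exon, chr19:55387189-55387209, plus strand: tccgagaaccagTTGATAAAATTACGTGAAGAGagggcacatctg
Ewsr1 18 nt exon, chr11:5091460-5091477, minus strand: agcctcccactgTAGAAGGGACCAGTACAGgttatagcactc
Chchd3 15 nt exon, chr6:32893392-32893406, minus strand: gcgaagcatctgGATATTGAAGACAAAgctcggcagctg
Rapgef6 15 nt exon, chr11:54651749-54651763, plus strand: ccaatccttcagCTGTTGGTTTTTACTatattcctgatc

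The largest difference among the 7 was in Rapgef6, an exchange factor for Rap GTPases, whose 15 nt exon was included at 0.425 in Emx1-Cre and 0.825 in Gad2-Cre controls at a coverage of 28. Fstl5, a secreted follistatin-like protein, had its 27 nt exon at 0.623 and 0.946, with an FDR of 2.48e-08 in the authors' deposited table, and a 24 nt form that starts 3 bases later at 0.474 and 0.902. The 15 nt exon of Chchd3, which shapes mitochondrial cristae, was at 0.769 and 0.957, with an FDR of 1.38e-09 in the authors' deposited table. Vti1a, a SNARE protein of endosomes and the Golgi, was at 0.677 and 0.875. Tpd52l2, at the highest coverage of the 7 (240), was at 0.515 and 0.708. Ewsr1, an RNA-binding protein, was at 0.117 and 0.260, so its 18 nt exon was the minor form in both classes. Those not printed were in Cd47, Sh3glb1, Mars, Ssr1, Ergic3 and Nckap5, with second forms in Fstl5 and Ewsr1 and a separate 26 nt exon of Tpd52l2 at chr2:181511574-181511599. A 25 nt exon of Cd47, a membrane signal against phagocytosis, reached 1 in Gad2-Cre controls from 0.701 in Emx1-Cre, at a coverage of 20.5. A 24 nt exon of Sh3glb1, a membrane-bending endophilin, was at 0.686 and 0.959. The 2 short exons of these genes that went the other way were the 24 nt exon of Nrxn2 and a 25 nt exon of Fam49a, a regulator of actin, at 0.890 and 0.707 with a coverage of 22.

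The share of exons that keep the reading frame was larger among those higher in Gad2-Cre controls. Of 228 cassette exons that GENCODE annotates as coding, 163 (71.5%) had a length that is a multiple of 3, beside 41.1% of 165262 internal coding exons of the annotation. The share was 79.4% (108 of 136) for exons higher in Gad2-Cre and 59.8% (55 of 92) for those higher in Emx1-Cre controls. In genes found in neither cKO table it was 78.6% (33 of 42) and 43.3% (13 of 30), the latter near the share over the annotation. Median length in these genes was 51 nt for exons higher in Gad2-Cre and 98 nt for those higher in Emx1-Cre. Of all 156 distinct cassette exons in these genes, 103 are exons of GENCODE with both ends, 40 of them higher in Emx1-Cre and 63 in Gad2-Cre controls.

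Short motifs of neuronal splicing factors were counted inside the annotated coding cassette exons of 60 to 150 nt, on the transcript strand. TGCATG, the motif of RBFOX proteins, was in 2 of 50 exons higher in Gad2-Cre (4%) and in none of 46 higher in Emx1-Cre controls, beside 2.84% of 98691 annotated internal coding exons of that length. At least 3 matches, overlaps counted, to any of the NOVA forms TCAT or TCAC or CCAT or CCAC were in 10 of 50 and 10 of 46 exons, beside 27.4% over the annotation. They were in 9 of 32 exons (28.1%) of genes found in neither cKO table, against 11 of 64 (17.2%) in the other genes. A form bound by PTBP proteins, CTCTCT or TCTTCT or TTCTCT, was in 7 of 50 and 4 of 46 exons, beside 10.1%. TGTGTG, a CELF form, was in 2 of 50 and 0 of 46, beside 4.42%. Introns, where most such sites are known, were not searched.

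Retained introns, read as stated above, were the type with the steepest lean. The 27 retained-intron events in neither cKO table are 26 introns, 20 of them higher in Gad2-Cre controls. Their median level was 0.117 in Emx1-Cre and 0.324 in Gad2-Cre controls for those 20, so spliced transcripts remained the major form in most. The largest was an 845 nt intron of Htt, the huntingtin gene, at 0.195 in Emx1-Cre and 0.545 in Gad2-Cre controls. Srrt, a factor of the nuclear cap-binding pathway, had a 125 nt intron at 0.522 and 0.788, and an alternative 3′ splice site in the same stretch was at 0.613 and 0.833, so both events share reads. Camsap3, a protein of microtubule minus ends, was at 0.151 and 0.402, and Htra2, a mitochondrial protease, at 0.395 and 0.621. Chd8, a chromatin remodeller, was at 0.165 and 0.350, and the histone deacetylase family genes Hdac6 and Hdac3 at 0.120 and 0.244 and at 0.103 and 0.206.

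The other 6 introns were higher in Emx1-Cre controls. The clearest by coverage was a 132 nt intron of Exosc9, a subunit of the RNA exosome, at 0.331 in Emx1-Cre and 0.118 in Gad2-Cre controls, with a coverage of 212 and an FDR of 1.36e-09 in the authors' deposited table. Rps24, a ribosomal protein gene, had the largest value, 0.893 against 0.387, but its 2281 nt interval contains an annotated exon, as does the 1485 nt interval of Dhx35 (0.298 and 0.0833), so reads counted there need not come from a retained intron. Rhot2, Wrn and Kdm5a were the other three. Ribosomal RNA was removed and no poly(A) selection was made, per the labels, so RNA not yet fully spliced was sequenced too, and its part in the intron levels was not tested.

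**Figure D5:**
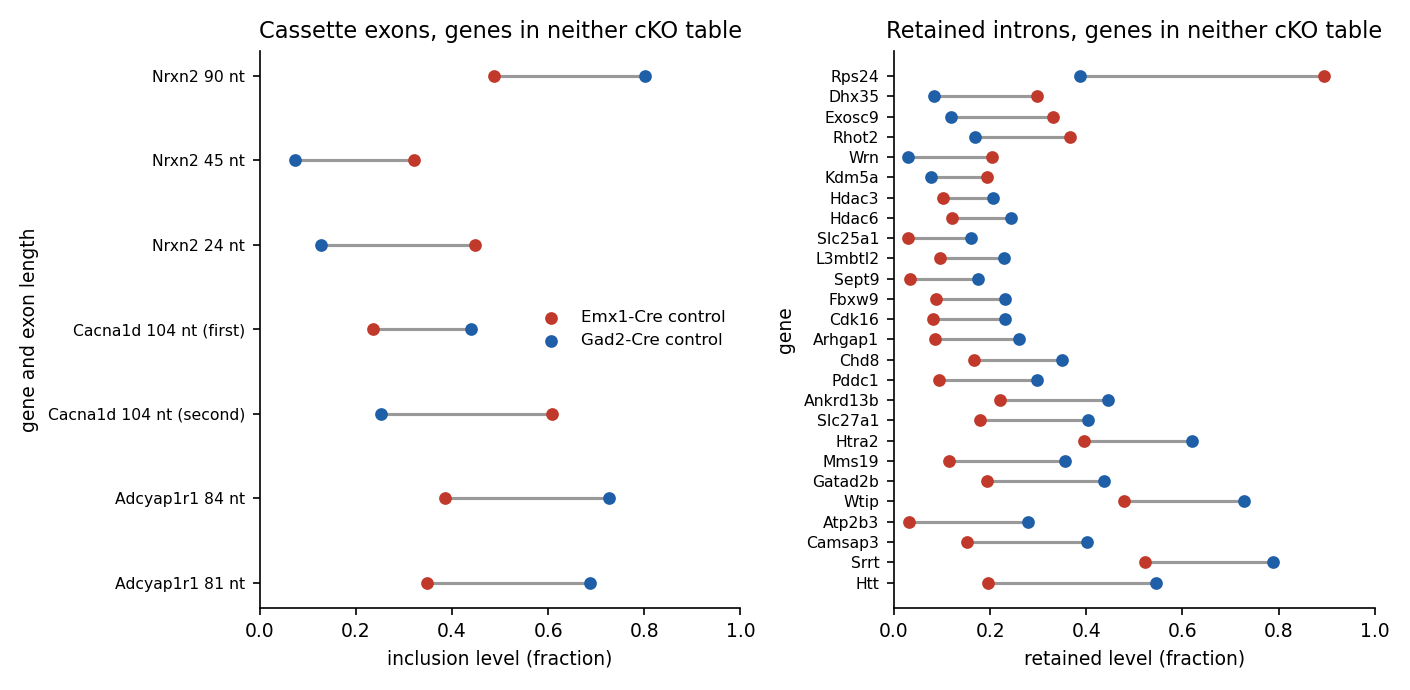
Left, inclusion level (x axis, fraction) of Nrxn2, Cacna1d and Adcyap1r1 cassette exons; right, retained level of the 26 introns in genes found in neither cortical cKO table; red points are Emx1-Cre and blue points Gad2-Cre controls, each 1 pooled value. The 24 and 45 nt exons of Nrxn2 are higher in Emx1-Cre and its 90 nt exon in Gad2-Cre controls, and 20 of 26 introns are higher in Gad2-Cre.

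Other event types in the same genes had smaller counts. Among tandem cassettes with a coverage of at least 50, Pam led toward Gad2-Cre at 0.360 in Emx1-Cre and 0.888 in Gad2-Cre controls, followed by Nrxn2 (0.268 and 0.584), where the 90 nt exon is joined to a further exon, and by Arnt2, a transcription factor, at 0.139 and 0.422. Toward Emx1-Cre the leaders were Dennd5a (0.345 and 0.0972), the long noncoding RNA Sox2ot (0.250 and 0.0594) and Psmd5, a proteasome assembly factor (0.801 and 0.615). Among mutually exclusive exons, Cyfip1, a subunit of the WAVE actin regulator, used the first of 2 exons at 0.698 in Emx1-Cre and 0.884 in Gad2-Cre controls. Read as cassettes, the 148 nt exon stood at 0.647 and 0.912 and the 154 nt exon at 0.273 and 0.122. Exons of the repair gene Fancg, the Notch ligand Dner and the mitochondrial gene Uqcc1 led in the other direction, at 0.716 and 0.457, 0.623 and 0.405, and 0.363 and 0.172. Among alternative splice sites with a coverage of at least 50, the largest difference was in Ccnt2, a cyclin of transcription elongation. Ccnt2 stood at 0.470 and 0.820, with an FDR of 0.0457 in the authors' deposited table, near the limit for listing. Next, among 3′ sites, came Taf1, a subunit of the basal transcription factor TFIID, at 0.646 and 0.896.

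Of the 189 genes 181 had listed events at a single site. The other 8 had events at 2 or more sites, and in 6 of them the sites differed in the sign of the difference, Nrxn2 and Tcf4 among them. In Tcf4 a cassette exon stands beside an alternative 3′ splice site, whose sign says nothing of more or less exon. In Cacna1d and Cyfip1, which are counted in the 6, the sites are the members of a mutually exclusive pair, so that opposite directions follow from the event itself. Huwe1, a ubiquitin ligase, had a tandem cassette at 0.4 in Emx1-Cre and 0.111 in Gad2-Cre controls beside a 228 nt exon at 0.521 and 0.672. Over all 541 genes 33 of the 64 with several sites had mixed signs. All event types are counted there, so these need not all be opposite changes in inclusion.

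Gene lists for the tissue, which were put together with earlier results of these data known, are given as counts. Beside them, 2.39% of all annotated protein-coding genes were listed, a base that also holds genes these neurons may not express. Which genes could be tested is not known. The largest event was higher in Emx1-Cre in 201 and in Gad2-Cre controls in 340 of the 541 listed genes. The median of that largest difference (Emx1-Cre minus Gad2-Cre, in the authors' deposited table) was -0.148. That event can be of any type. For mutually exclusive exons and alternative splice sites its sign follows the order of the isoforms only. Synaptic adhesion genes had 10 of 50 listed, with the largest event of 4 higher in Emx1-Cre and of 6 in Gad2-Cre controls and a median of -0.151; Nrxn2 and Ntrk3 were the members in neither cKO table, and the 135 nt coding exon of Ntrk3, the receptor of neurotrophin NT-3, stood at 0.0909 and 0.2. Cytoskeleton and motor genes had 23 of 81, with 8 and 15 and a median of -0.189. Of its 6 members in neither cKO table, Klc1, a kinesin light chain, was at 0.843 in Emx1-Cre and 0.623 in Gad2-Cre controls, and Dync1i2, a dynein intermediate chain, had a 60 nt exon at 0.879 and 0.985. Ctnnd1, a catenin, was at 0.589 and 0.727, and the actin-binding cortactin gene Cttn was at 0.564 and 0.445 for the first of its exclusive exons.

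Kinases and regulators of small GTPases had 10 of 78 listed, 1 with the largest event higher in Emx1-Cre and 9 in Gad2-Cre controls, with a median of -0.225. The exception by this count was the kinase gene Braf, whose pair of coding exons was included together at 0.929 and 0.593, with a coverage of 22. The largest event of Ptk2, counted among the 9, was of mutually exclusive exons, so its sign is no measure of more or less exon. A 312 nt cassette exon of Ptk2 went the other way, at 0.312 in Emx1-Cre and 0.0816 in Gad2-Cre controls. RNA-binding and splicing genes had 13 of 96, with 8 higher in Emx1-Cre and 5 in Gad2-Cre controls and a median of 0.149. The largest events of Qk, Elavl1, Elavl2, Luc7l, Snrnp70 and Snrpn were mutually exclusive exons or alternative 3′ splice sites. Their signs are no measure of more or less exon. Of the 4 in neither cKO table, Rbfox1 is given above, Nova1, the paralogue of Nova2, had a 102 nt exon outside the annotation at 0.377 and 0.0933, and Tra2a had an 81 nt exon, also not coding, at 0.483 and 0.232. An event labelled Snrpn, a gene of an imprinted region, was at 0.594 and 0.765.

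Ion channel genes had 4 of 62 listed, among them Cacna1d and Scn2a1 and, at a low level in both classes, a 33 nt exon of Kcnip1, a potassium channel partner, at 0.000435 and 0.106. Chromatin and transcription genes had 11 of 79, with Chd8, Tcf12 and Tcf4 in neither cKO table; the 72 nt exon of Tcf12 was at 0.789 and 0.934. Glutamate synapse genes had 6 of 50, with Grm5 the member in neither cKO table, and presynaptic genes 8 of 67 and axon guidance genes 7 of 57, with none. Of 26 genes of the GABA and glycine synapse only Gphn, the scaffold gephyrin, was listed, and it is in a cKO table.

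The largest cassette differences over all 541 genes were mostly in genes that are also in a cKO table. The cKO comparisons use the same control samples. Genes also in a cKO table held 375 of all 534 listed cassette events, so most cassette events of any size were theirs. Whether the largest differences fell in them more often than that was not tested. Nin, a centrosomal protein, had a 411 nt exon at 0.153 in Emx1-Cre and 0.833 in Gad2-Cre controls with a coverage of 22.0. A 47 nt form that lies within that exon, with a coverage of 70.0, was at 0.356 and 0.944. Both forms share an end and their neighbouring exons, so they are not separate measurements. Exoc7, of the exocyst, had a 69 nt exon at 0.183 and 0.842. Trrap, a scaffold of histone acetyltransferases, had a 21 nt exon at 0.278 and 0.891, and its level in Emx1-Cre cKO neurons is listed at 0.580. In Exoc7 the Gad2-Cre cKO level is listed at 0.189. Toward Emx1-Cre, Qk, an RNA-binding protein, had a 119 nt exon at 0.605 and 0.0708, with 0.446 in Emx1-Cre cKO neurons. The 18 nt exon of Ptprd, a synaptic receptor phosphatase, was at 0.693 and 0.169 in the controls, and at 0.1996 in Emx1-Cre and 0.0501 in Gad2-Cre cKO neurons. Uggt2, 2610203C20Rik and Clasp2 were also among these. Wdr45, an autophagy gene in neither cKO table, had a 189 nt exon outside the coding part at 0.600 and 0.0811 with a coverage of 20, the lowest listed.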

How the data were processed

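The authors quantified splicing with Quantas, per the labels; the submitters' processing notes name build mm10 and, with no version or role, kallisto and edgeR. Aligner and strandedness are not given in the sources used here. Levels are fractions deposited as 1 value per group, pooled over 3 samples; the authors' p-value and FDR and a coverage signal are deposited per event, and the authors kept events with an FDR of at most 0.05 and a difference of at least 0.1, per the labels. Depth per sample is therefore unknown and no test across samples could be computed. The deposited differences equal Emx1-Cre minus Gad2-Cre within 1e-09 at all 1236 events. Control levels were the same in the cKO tables at all 307 and 323 shared events.

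A gene counted as in neither cKO table when none of the gene identifiers in an event's label occurred in either table; 46 of these 356 events name more than 1 gene, and the printed name is that of the gene whose annotated exon ends match. Exons were placed on GENCODE M21, of the same build, by their coordinates, given 1-based; a site is a group of overlapping alternative regions. Exon sequences come from the GENCODE transcripts. Work was done in Python 3.11.15 with pandas 2.3.3 and figures with matplotlib 3.10.9. The rule for named genes took, among genes in neither table and coverage of at least 50, 1 event per gene: 10 cassette exons in each direction and 3 events of each other type in each direction, then the 5 largest cassette differences over all genes in each direction and up to 4 genes per list; other names were chosen after their values were seen. Members, lists and rules were chosen with earlier results of these data known. Expression tables, the Purkinje table and the other samples were not analysed here. Values of some genes that the rule would name are not reported here.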

Additional observations from a re-analysis of the deposited data

How the results depend on the processing

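Alternatives were stricter limits (a difference of at least 0.2, an FDR of at most 0.01, a coverage of at least 50), 1 event per gene or per site and type, and other ways of matching genes; those per site, by matching exon ends and for short exons were added after the data had been seen. Of 60 alternative values over 12 shares, 52 kept their direction and stayed within the 95% binomial interval of the main share. Most alternatives are subsets of the same events, and events can share reads. The interval is therefore a yardstick for size only, and the count of 52 is no test of robustness. The share of tandem cassettes higher in Emx1-Cre fell from 30.0% to 23.7% at a difference of 0.2 and to 25.0% at an FDR of 0.01. For mutually exclusive exons, near an even split at 50.3%, it crossed to 42.2%, 43.0% and 45.6% under the limits on difference, FDR and coverage, and for alternative 3′ splice sites it went from 39.4% to 68.2% at an FDR of 0.01, where 22 events were left; the cause was not tested. The share of genes in neither cKO table fell from 34.9% to 28.4% at a coverage of 50. Of exons up to 15 nt in those genes, 5 of 5 (100%) were higher in Gad2-Cre controls.

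No paired analysis was possible because the tables hold 1 pooled level per group and no column carries a replicate number; for the same reason no sample was left out. Coverage was near 20, the lowest kept, for events of Wdr45, Cd47, Sh3glb1, Braf, Fam49a and Nin, among others. The FDR was near the limit of 0.05 for events of Ccnt2, Ap1b1, Nadk and Dner, among others, and is not printed for every event named. Events that missed the authors' limits are not known, so a gene's absence from a table does not show equal splicing. The intron windows planned for the motif count were not run because no genome sequence was at hand.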
